A study of Mus musculus with 15 samples.

Results

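The tumours described here are the 5 of 15 mouse mammary tumours whose arrays read transcripts of skeletal muscle, set against the other 10 tumours. Members were chosen by the measured level of 4 muscle genes, averaged on each array: Tnnt3 (fast troponin T), Tnni2 (fast troponin I), Mylpf (fast regulatory myosin light chain) and Myh2 (type IIa myosin heavy chain). A tumour counted as one with muscle transcripts where that mean lay above the mean of the 15 arrays. All 15 tumours arose in MMTV-PyMT transgenic mice, in which the mouse mammary tumour virus promoter drives the polyoma middle T oncogene in mammary epithelium, and all were taken at 20 weeks of age. The 7 Wsh tumours came from mice carrying the Wsh allele, a mutation that disturbs expression of the receptor gene Kit and leaves mice poor in mast cells, and the 8 B6 tumours from C57BL/6 mice without it. Each tumour gave 1 single-colour Agilent array of total RNA. The 5 tumours with muscle transcripts were Wsh 1, Wsh 3, Wsh 4, Wsh 5 and B6 4; the 10 without were Wsh 2, Wsh 6, Wsh 7 and the 7 other B6 tumours.

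Skeletal muscle fibres are packed with sarcomeres, in which thick filaments of myosin pull on thin filaments of actin, and troponin on the thin filament lets calcium switch the contraction. Fibres come in types that differ in the myosin heavy chain they make: fast IIb fibres use Myh4, fast IIx fibres Myh1, fast IIa fibres Myh2 and slow type I fibres Myh7, and most other sarcomere proteins have fast and slow versions too. The mammary gland holds no skeletal muscle of its own, but the mouse mammary fat pads lie on or near muscles of the body wall and limbs.

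Values are log2 of the processed signal minus the array's 75th percentile, so 0 is the level below which 75% of the probes of that array lie, and a difference of 1 is a doubling of signal. The 15 arrays were alike in quality: between 55.7% and 70.8% of spots were well above background in the 5 tumours with muscle transcripts, against 56.8% to 73.4% in the 10 without. Kit lay between -0.18 and 1.40 in the 7 Wsh tumours, against 2.03 to 3.84 in the 8 B6 tumours. Mcpt4, a mast cell protease, was not well above background in any of the 7 Wsh tumours and was so in all 8 B6 tumours. Muscle transcripts were unevenly spread over the groups of the study: 4 of 7 Wsh tumours and 1 of 8 B6 tumours had them, as did 4 of 8 tumours on 1 array slide and 1 of 7 on the other. Background was therefore a term in every fit unless stated. The labels do not say whether the tumours came from separate mice, and the p-values rest on how these 15 tumours scatter. In bulk tissue, more muscle fibres and more RNA per fibre cannot be told apart.

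The mean of the 4 markers was 4.53 in Wsh 4, 4.15 in Wsh 3, 1.65 in Wsh 1, 0.92 in Wsh 5 and 0.85 in B6 4, against -4.41 to -3.64 in the 10 tumours without muscle transcripts. The boundary lay at -1.86, so the nearest tumour inside, B6 4, and the nearest outside, B6 8 at -3.64, were both well away from it. These values chose the groups and are given as a description.

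The 4 markers did not rank the 5 tumours alike. Tnnt3 read 5.25 in Wsh 4, 4.94 in Wsh 3, 2.42 in Wsh 1, 1.37 in Wsh 5 and 2.43 in B6 4, against a lowest value of -5.67, a median of -4.30 and a highest of -3.42 in the 10 tumours without. Tnni2 read 5.76, 5.48, 3.32, 2.08 and 3.1 in the same 5 tumours, against -2.81, -2.19 and -1.68 as lowest, median and highest without. Mylpf read 4.29, 3.95, 1.44, -0.21 and 1.63 in those 5, against -4.70, -4.15 and -3.92 without. For these 3 genes B6 4 exceeded Wsh 5 and stood beside Wsh 1. Myh2 went another way: it read 2.84 in Wsh 4, 2.21 in Wsh 3, -0.59 in Wsh 1, 0.43 in Wsh 5 and only -3.77 in B6 4, against -6.02, -5.28 and -4.82 without. B6 4 thus lay just above the highest tumour without muscle transcripts for Myh2, and the groups did not overlap for any of the 4 markers. Other probes of Mylpf and Myh2 differed less: group means were 0.15 apart for Mylpf and 0.62 and 0.89 apart for Myh2. Those probes were well above background on at most 1 of the 5 arrays. The 2 other probes of Tnnt3 differed more, with group means at least 9.37 apart, against 7.53 for the probe used. Both were well above background on all 5 arrays.

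**Figure D1:**
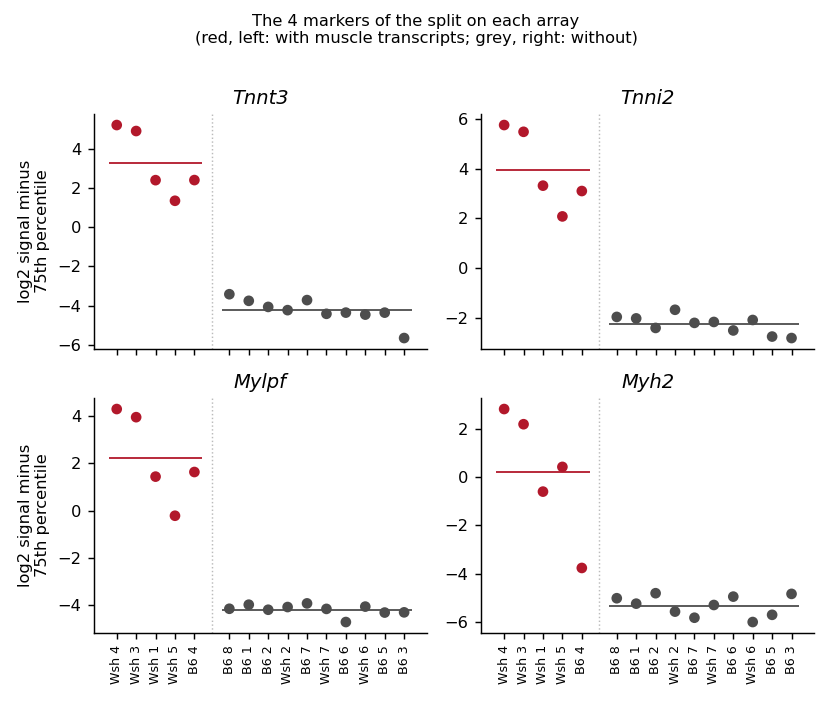
Level of the 4 genes that define the split on each of the 15 arrays (log2 processed signal minus the 75th percentile; one panel per gene, each with its own axis). Red points on the left are the 5 tumours with muscle transcripts, grey points on the right the 10 without, and lines are group means; the groups are apart for every marker, and B6 4 is low for Myh2 only.

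By the brightest probe of each gene, the fast IIb myosin heavy chain was the muscle transcript with the largest difference. Myh4 read 6.30 in Wsh 4, 6.05 in Wsh 3, 4.18 in Wsh 1, 1.99 in Wsh 5 and 4.24 in B6 4, against a lowest value of -7.68, a median of -6.57 and a highest of -0.38 in the 10 tumours without. The difference, with minus without muscle transcripts and adjusted for background, was 10.99 ± 1.19 on the log2 scale (SE). That value comes from a single Myh4 probe. Another averaged -5.32 with and -5.39 without, well above background on 2 of the 5 arrays and 3 of the 10. A further one averaged -3.89 with and -7.27 without, well above background on 3 of the 5 arrays. Myh1, the IIx heavy chain, read 3.36, 3.44, 1.41, 0.78 and -2.01 in Wsh 4, Wsh 3, Wsh 1, Wsh 5 and B6 4, against -7.72, -7.08 and -3.07 as lowest, median and highest without. In B6 4 the IIb chain was therefore as strong as in Wsh 1 while the IIx and IIa chains lay 3.43 and 3.17 log2 units lower than in Wsh 1.

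Among the 5 tumours, Wsh 5 was the highest for several slow fibre genes. Myh7, the slow heavy chain, read -6.17 in Wsh 4, -4.99 in Wsh 3, -3.93 in Wsh 1, -1.01 in Wsh 5 and -6.55 in B6 4, against -7.79, -6.46 and -5.67 without. That probe was well above background on 3 of the 5 arrays and 1 of the 10. Another Myh7 probe, at -7.31 in Wsh 5, was so on none. Myl2, the slow regulatory light chain, read -0.50 in Wsh 5, between -5.30 and -4.69 in the other 4 tumours with muscle transcripts, and -7.35 to -5.15 in the 10 without. Tnnt1 (slow troponin T) read -0.11 in Wsh 5, against -2.73 to -1.81 in the other 4 and -3.27 to -2.33 without, and Tnni1 (slow troponin I) read -1.62 in Wsh 5, against -2.68 to -2.44 in the other 4 and -2.70 to -1.73 without. Wsh 5 was the highest of the 5 for all 4 of these slow genes. It was the lowest of the 5 for Tnnt3, Tnni2, Mylpf and Myh4, while B6 4 was the lowest for Myh1 and Myh2 and for the mean of the 4 markers.

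Of the other slow fibre genes, Myl3, which encodes the slow essential light chain, followed the fast pattern at 2.72, 2.55, 0.47, -0.87 and 0.40 in Wsh 4, Wsh 3, Wsh 1, Wsh 5 and B6 4, against -7.06 to -1.68 without. Ankrd2, a stress-responsive titin partner, read -1.51 and -2.59 in Wsh 4 and Wsh 3, -3.79 in Wsh 5, -5.43 in Wsh 1 and -6.35 in B6 4, against -6.13 to -5.42 without. Csrp3 (muscle LIM protein) and Myoz2 (calsarcin 1) were well above background, by the probe used for each gene, in the 4 Wsh tumours and in none of the 10 without, but not in B6 4, where they read -6.82 and -6.61. Tpm3, Atp2a2 and Myl6b, which many other cells use, and Tnnc1 and Casq2 overlapped between the groups.

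**Figure D2:**
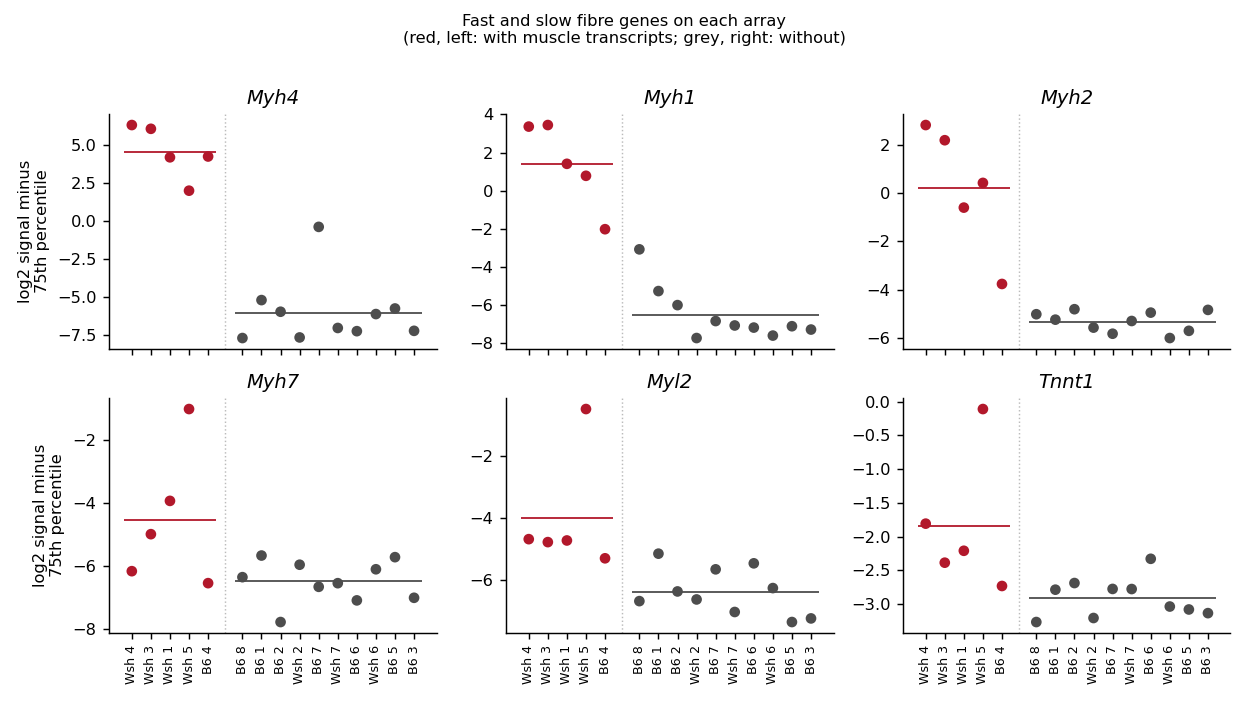
Fast heavy chains (Myh4 IIb, Myh1 IIx, Myh2 IIa; upper row) and slow fibre genes (Myh7, Myl2, Tnnt1; lower row) on each of the 15 arrays, as log2 processed signal minus the 75th percentile, each panel with its own axis; lines are group means. Red points on the left are the 5 tumours with muscle transcripts and grey points on the right the 10 without. Wsh 5 is highest for the slow genes, B6 4 has Myh4 with little Myh2, and the grey point at -0.38 for Myh4 is B6 7.

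The windows before the start of 3 of these genes are shown because their transcripts differ among the 5 tumours: a light chain of all fast fibres, the IIb heavy chain and the slow heavy chain. Each is the 250 bases before the start in RefSeq (GRCm38.p6), read on the gene's strand, and capitals mark matches to the E box CANNTG, the motif bound by myogenic basic helix-loop-helix factors, on either strand.
Mylpf (chr7:127211358-127211607, plus strand): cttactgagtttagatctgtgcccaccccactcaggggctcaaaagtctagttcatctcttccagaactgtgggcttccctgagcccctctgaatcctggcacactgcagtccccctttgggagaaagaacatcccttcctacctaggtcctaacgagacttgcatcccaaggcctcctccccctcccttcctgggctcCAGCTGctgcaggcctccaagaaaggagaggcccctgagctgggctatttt
Myh4 (chr11:67237562-67237811, plus strand): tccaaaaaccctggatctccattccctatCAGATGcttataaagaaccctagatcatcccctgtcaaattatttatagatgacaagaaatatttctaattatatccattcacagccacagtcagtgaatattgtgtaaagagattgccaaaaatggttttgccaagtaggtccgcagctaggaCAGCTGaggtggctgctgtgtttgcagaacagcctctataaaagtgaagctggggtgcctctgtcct
Myh7 (chr14:54994550-54994799, minus strand, the downstream of 2 annotated starts): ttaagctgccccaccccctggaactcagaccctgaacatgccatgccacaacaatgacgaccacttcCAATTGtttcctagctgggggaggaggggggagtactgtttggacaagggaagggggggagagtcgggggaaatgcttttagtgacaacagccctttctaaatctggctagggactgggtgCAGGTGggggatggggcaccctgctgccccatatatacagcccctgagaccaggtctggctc
The window of Mylpf holds 1 E box, that of Myh4 holds 2 and that of Myh7 holds 2, while 66.2% of 32851 mouse windows of the same length hold at least 1. The Myh4 window also holds 1 match to the MEF2 motif, found in 2.92% of windows, and 1 CArG box, found in 1.47%. The window of Myh2, which lies on chromosome 11 as Myh4 does, has no match to any of the 3 motifs, and its longest run shared with the Myh4 window is 21 bases. No window was given for Tnnt3 or Tnni2.

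Beyond the markers, many other muscle genes were higher in the same 5 tumours, and these values are a description because the groups were formed from genes of the same tissue. Of 23443 genes tested (the 4 markers left out), 37 passed an adjusted p of 0.05 (0.158% of genes), 33 of them higher in tumours with muscle transcripts (0.141%) and 4 lower (0.0171%), by limma with Benjamini-Hochberg adjustment. Of the 33, 27 were members of 11 lists of muscle genes. The values of the 5 tumours and the other 10 did not overlap for 64 genes (0.273%). They were wholly higher for 57 (0.243%), of which 40 were list members, and wholly lower for 7 (0.0299%), of which none was. The 11 lists named 196 genes, of which 156 non-marker genes passed the filter on low values; 125 of the 156 differences were above 0, and their median was 0.89, against -0.04 over all genes tested. Of the 156, 6 were well above background in no tumour without and so passed the filter only through the 5 tumours with muscle transcripts. The median over the same genes was 0.67 on slide 1 alone and 0.66 on slide 2 alone, and 1.17 within Wsh and 0.32 within B6, where a single tumour had muscle transcripts.

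Sarcomere genes carried the largest differences. Of the fast thick filament list, 14 of 14 filtered non-marker genes were above 0, with a median of 3.05, and of the thin filament list 10 of 10 were, with a median of 2.63. Myom2 (myomesin 2, which crosslinks myosin at the M line) averaged 0.51 ± 1.86 in tumours with muscle transcripts, against -7.15 ± 0.68 in those without (SD, n = 5 and 10), and since no tumour without had it well above background it was at least 55.5-fold higher. Tnnc2, the fast troponin C, read 6.24 in Wsh 4, 6.08 in Wsh 3, 3.76 in Wsh 1, 2.65 in Wsh 5 and 3.63 in B6 4, against -4.02, -3.65 and -2.27 as lowest, median and highest without. Actn3 (alpha-actinin 3, of fast Z discs) read 2.56, 2.09, -0.94, -2.11 and 0.25 in those 5, against -7.67 to -2.62 without. Myl1, the fast essential light chain, differed by 5.44 and Neb, the giant ruler of the thin filament, by 5.31, although for Neb the groups overlapped. Acta1, skeletal actin, read 4.73, 4.18, 2.10, 2.36 and 2.11 in the same order of tumours, against -1.19 to 1.49 without, a narrower gap between the groups.

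Genes of the Z disc, of calcium handling and of muscle energy supply followed. Myot (myotilin) and Myoz1 (calsarcin 2) were not well above background in any tumour without and were at least 30.5-fold and 33.9-fold higher in those with muscle transcripts. Tcap (telethonin, the titin cap) differed by 6.35 and Hspb7, a small heat shock protein of striated muscle, by 4.43. For Hspb7, B6 4 read only -4.51, against 0.80 in Wsh 4. Pvalb (parvalbumin, the calcium buffer of fast fibres) read 4.84, 4.74, 1.84, 0.42 and 2.33 in Wsh 4, Wsh 3, Wsh 1, Wsh 5 and B6 4, against -4.80 to -2.94 without. Trdn (triadin), Casq1 (calsequestrin 1) and Atp2a1 (the fast calcium pump SERCA1) differed by 6.19, 4.0 and 3.26, and none of the 3 overlapped between the groups.

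Of the muscle energy list 24 of 24 differences were above 0, with a median of 1.77. Ckm, the muscle creatine kinase, read 2.49, 1.90, -0.82, -2.45 and -0.65 in the 5 tumours in that order, against a lowest of -8.34, a median of -7.57 and a highest of -1.86 without, so Wsh 5 lay below B6 6, the highest tumour without. Ckmt2, the mitochondrial creatine kinase of muscle, was at least 26.6-fold higher and was not well above background in any tumour without. Pgam2 (muscle phosphoglycerate mutase) differed by 5.82 and Apobec2, a muscle member of the cytidine deaminase family, by 5.85, with wide scatter without, from -7.54 to -1.13. Of the muscle ubiquitin ligase list, Asb11 differed by 4.25 and its groups did not overlap. Trim54, Klhl31 and Asb5 differed by 4.22, 3.68 and 3.13, and for all 3 the groups overlapped.

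**Figure D3:**
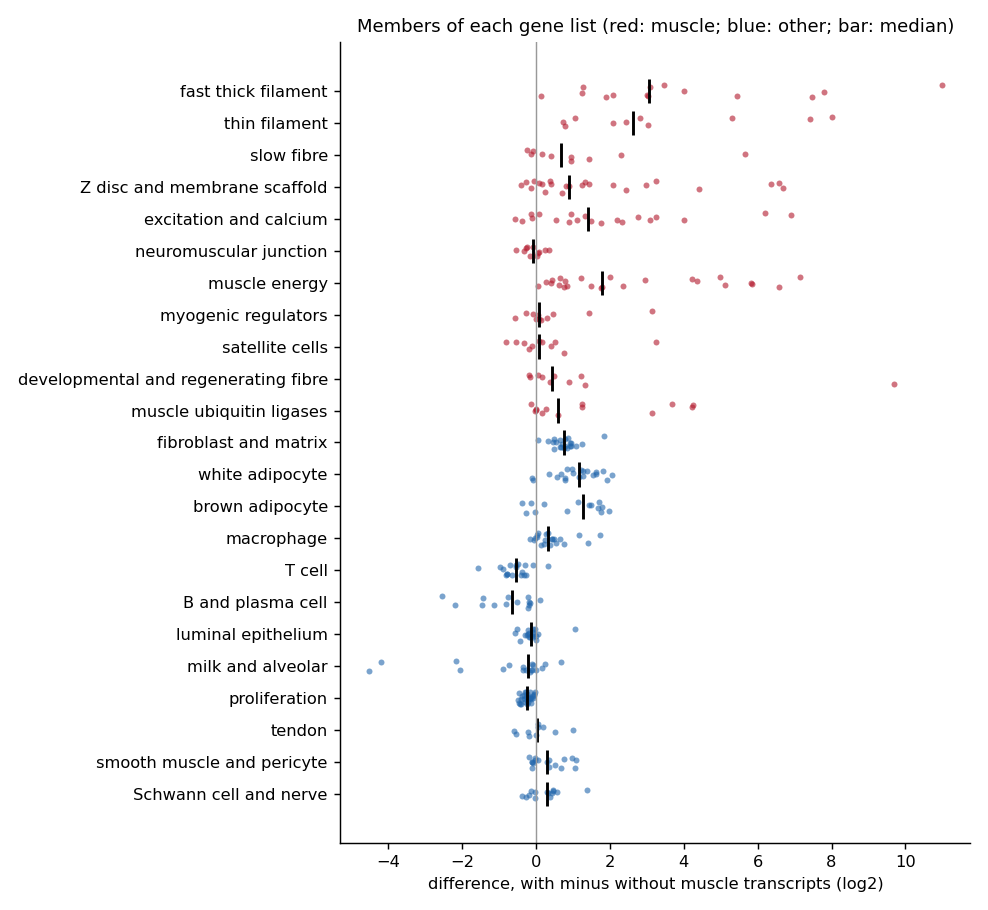
Difference of each filtered member, with minus without muscle transcripts, adjusted for background (x axis, log2), by gene list; red lists are the 11 of muscle, blue are 12 of the other lists, and black bars are list medians. The fast thick filament and thin filament lists lie wholly above 0 (medians 3.05 and 2.63), and neuromuscular junction, regulator and satellite cell lists lie about 0.

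Regulators, stem cells and the motor end plate gave little. The medians were 0.08 over 11 myogenic regulators, 0.09 over 11 satellite cell genes and -0.09 over 11 neuromuscular junction genes, and none of these 33 genes separated the groups. Myf6 (MRF4, the regulator of mature fibres) read -2.04 in Wsh 4 and -1.94 in Wsh 3, -4.78 in Wsh 1, -5.85 in Wsh 5 and -6.60 in B6 4, against -8.04 to -4.38 without. Mstn (myostatin, the secreted brake on muscle growth) read -0.89, -1.19, -3.14, -7.13 and -6.69 in that order, against -7.82 to -3.62 without, and Vgll2, a TEAD cofactor of muscle, read -0.96 and -1.89 in Wsh 4 and Wsh 3 and between -5.14 and -3.25 in the other 3, against -7.53 to -4.84 without. Those 3 genes were thus high in the 2 tumours of strongest muscle signal.

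Myod1, the myoblast determination factor, read -6.26 to -4.79 with muscle transcripts and -7.10 to -5.12 without. Myf5 was not well above background on any of the 15 arrays, Pax7, the satellite cell factor, on none of the 5 with and 2 of the 10 without, and Myog on 1 of the 5 and none of the 10. Des (desmin) read -0.06, -0.57, -1.91, -4.16 and -3.30 in Wsh 4, Wsh 3, Wsh 1, Wsh 5 and B6 4, against -7.08 to -3.80 without. For Des, all of these but Wsh 5 lay above the tumours without. Cdh15 (M-cadherin) read -3.87, -3.88, -5.36, -5.27 and -6.25 in that order, against -6.32 to -4.75 without. For Cdh15, only Wsh 4 and Wsh 3 lay above the tumours without. At the end plate, Musk and Chrnd differed by -0.55 and 0.35, and Lrp4 and Chrne by -0.33 and -0.28.

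Of the developmental and regenerating fibre list, 1 of 10 filtered genes, Myh8, separated the groups. Myh8, the perinatal heavy chain, read 6.27, 5.99, 3.76, 2.12 and 3.70 in Wsh 4, Wsh 3, Wsh 1, Wsh 5 and B6 4, against a lowest of -6.23, a median of -5.13 and a highest of -1.01 without. That value comes from 1 of 4 probes for Myh8: the other 3 were not well above background on any of the 5 arrays. The probe that read it and the Myh1 probe are shown because they overlap in sequence, with capitals for their longest shared run of 19 bases (mouse mm9).
Myh8 probe (chr11:67121925-67121984): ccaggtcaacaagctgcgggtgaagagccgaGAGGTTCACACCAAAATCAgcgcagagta
Myh1 probe (chr11:67037938-67037997): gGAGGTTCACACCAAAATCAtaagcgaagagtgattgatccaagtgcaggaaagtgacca
Whether the Myh8 probe reads transcripts of the neighbouring heavy chain genes was not tested, so the perinatal chain is reported as uncertain. Myh3, the embryonic chain, was not well above background on any of the 5 arrays, and the fusion factor Mymx on none of the 15. Actc1 (cardiac actin, also made by immature fibres), Ncam1 and H19 overlapped between the groups, at 1.35 to 3.28, 0.24 to 2.41 and 0.50 to 1.78 in tumours with muscle transcripts, against 0.98 to 2.85, -0.62 to 2.84 and -1.76 to 0.76 without.

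Probes of 1 gene disagreed elsewhere too. For Ryr1, the calcium release channel of the sarcoplasmic reticulum, the brightest probe differed little, at -4.14 to -3.48 in tumours with muscle transcripts and -4.00 to -2.22 in those without, while another probe read 0.46, 0.12, -1.94, -3.99 and -2.10 in Wsh 4, Wsh 3, Wsh 1, Wsh 5 and B6 4, against a highest of -3.59 without. For Trim63 (MuRF1, a ubiquitin ligase of muscle atrophy), a probe well above background on all 5 arrays with muscle transcripts and on none of the other 10 read -0.19, -1.10, -4.27, -3.20 and -3.68 in the same order. Both were chosen after their values were seen, and the rule of 1 brightest probe per gene hides them from the counts above.

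The order of the 5 tumours was described over 42 muscle genes that were well above background in all 5 and did not overlap with the other 10. The 4 markers are among them, and that choice leaves out Myh7, Myl2, Tnnt1 and Tnni1, the slow genes for which Wsh 5 was the highest. Over the 42, Wsh 4 was the highest for 37 and Wsh 3 for 5. Wsh 5 was the lowest for 32, B6 4 for 8 and Wsh 1 for 2. Relative to each gene's mean over the 5, the median was 1.93 in Wsh 4, 1.63 in Wsh 3, -0.81 in Wsh 1, -0.91 in B6 4 and -1.85 in Wsh 5. Single genes ranged from 0.90 to 2.62 in Wsh 4 and from 1.09 to 2.05 in Wsh 3, so those 2 tumours overlapped, while Wsh 1 ranged from -1.35 to 0.24 and lay below both. The genes come from single arrays of these tumours, so the order has no replicate check and holds for these 42 only.

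**Figure D4:**
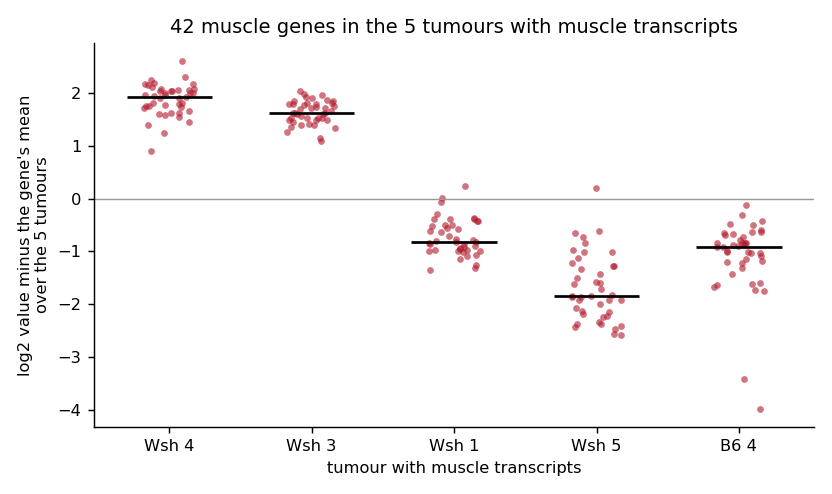
Log2 value of each of 42 muscle genes minus that gene's mean over the 5 tumours with muscle transcripts (y axis), by tumour (x axis); bars are medians over genes. Wsh 4 and Wsh 3 lie above 0 for every gene, and the low points of B6 4 are the fast IIa and IIx heavy chains.

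Among the 10 tumours without, B6 7 carried part of the muscle signal. It read -0.38 for Myh4, -1.01 for Myh8, 0.97 for Myl1 and -1.68 for Myl3, against medians of -6.57, -5.13, -2.48 and -4.98 over the 10. It was the highest of the 10 for 11 of the 42 muscle genes. Its values for the 4 markers, by contrast, lay within those of the other 9 apart from Mylpf at -3.92, the highest of the 10 by a narrow margin. Other tumours without muscle transcripts stood out for single genes: B6 3 read -2.62 for Actn3 and -3.63 for Neb, B6 6 read -1.86 for Ckm and B6 8 read -3.07 for Myh1 and -2.27 for Tnnc2.

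Outside the muscle lists, 6 genes passed the test as higher in tumours with muscle transcripts. They were not on the lists, but the split was made on the same arrays, so their p-values describe association with it. For all 6 the groups did not overlap, Wsh 4 and Wsh 3 were the 2 highest tumours, and Wsh 5 was the lowest of the 5. Ank1 (ankyrin 1, whose small isoforms anchor the sarcoplasmic reticulum) read 0.24, -0.28, -2.92, -4.06 and -2.77 in Wsh 4, Wsh 3, Wsh 1, Wsh 5 and B6 4, against -7.66 to -5.42 without, a difference of 4.62 (limma adjusted p = 0.0157). A second Ank1 probe, well above background on 4 of the 5 arrays, read -1.93, -2.15, -4.21, -4.73 and -4.58 there. Another read -6.70 to -3.71 in tumours with muscle transcripts and -5.95 to -3.76 in those without. Ank1 was therefore high by some of its probes and not by others.

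Rbfox1 (a splicing factor of neurons and muscle) was not well above background in any tumour without and was at least 8.27-fold higher with muscle transcripts. Myadml2, a gene of little known function, was likewise below that limit in all 10 and at least 4.78-fold higher. Both were above background on exactly the 5 arrays that the filter on low values required, so they entered the test only through the tumours where they were high, and their values are a description. Prr33 read -0.22, -0.46, -3.20, -4.19 and -3.49 in Wsh 4, Wsh 3, Wsh 1, Wsh 5 and B6 4, against -7.71 to -5.25 without, a difference of 4.43 (limma adjusted p = 0.0266). Txlnb (beta-taxilin, a muscle-enriched protein) differed by 3.51 with an adjusted p of 0.0183 by limma. Gm35107, a predicted non-coding gene, read 3.27, 3.06, -0.13, -1.30 and -0.06 in the 5 in that order, against -3.79 to -2.93 without, and it was well above background on all 15 arrays (difference 4.17, limma adjusted p = 0.0248). Cpt1b, the muscle isoform of carnitine palmitoyltransferase, which was on the brown adipocyte list, separated the groups at -4.08 to -1.74 with and -6.14 to -4.15 without, but did not pass the test (limma adjusted p = 0.377).

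The 4 that passed as lower were Angptl7, Gm13580, 1700026H06Rik and a long non-coding transcript with no symbol, and for all 4 the groups overlapped. The transcript with no symbol was well above background on 0 arrays with muscle transcripts and on 5 without. It therefore entered the test only through the tumours where it was higher, and its values are a description. Gm13580 read -2.37 to -1.92 with muscle transcripts, against -2.01 to 0.06 without (difference -1.27, limma adjusted p = 0.0349). Angptl7, an angiopoietin-like secreted protein, read -6.80 to -4.65 with, against -6.30 to -3.41 without (difference -1.46, limma adjusted p = 0.0464), and 1700026H06Rik read -5.70 to -4.26 with, against -4.57 to -3.43 without (difference -0.99, limma adjusted p = 0.0266). For Gm13580 and Angptl7 the 3 highest values belonged to Wsh 2, Wsh 6 and Wsh 7, the 3 Wsh tumours without muscle transcripts, and for 1700026H06Rik the 2 highest belonged to Wsh 6 and Wsh 7.

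**Figure D5:**
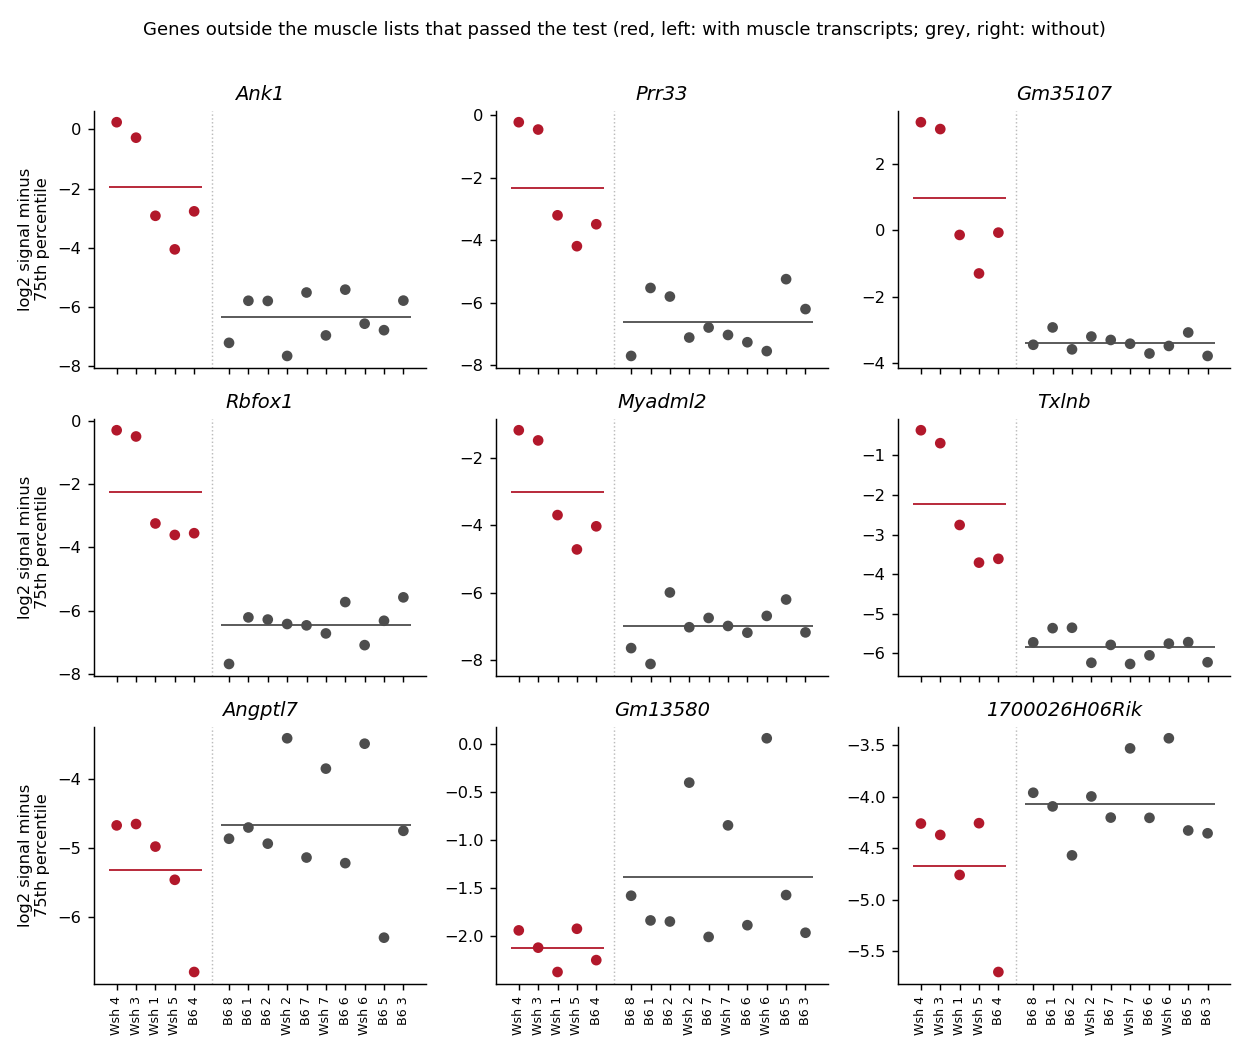
The 6 genes outside the muscle lists that passed the test as higher (upper and middle rows) and the 3 with a symbol that passed as lower (bottom row), on each of the 15 arrays (log2 processed signal minus the 75th percentile, each panel with its own axis; lines are group means). Red points on the left are the 5 tumours with muscle transcripts and grey points on the right the 10 without; the upper 6 do not overlap and the lower 3 do.

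These calls depended on which tumours entered. Leaving out Wsh 2, Wsh 6 or Wsh 7, the Wsh tumours without muscle transcripts, left 18, 18 and 17 genes by limma, in place of 37. With the slide as a further term 18 genes passed, within slide 1 alone 2 passed, and within the Wsh tumours alone 1 passed. Within slide 2 alone limma called 0, with 864 genes at an unadjusted p under 0.05, and there a single tumour had muscle transcripts. For the 6 higher genes outside the lists the groups did not overlap. Differences above 0 within a slide or a background were therefore bound to follow and are no check on them. Gm35107 differed by 2.15 and Rbfox1 by 3.3 within slide 2, and Ank1 by 3.27 within B6.

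No member of the 29 lists of other tissues and cell types passed the test. Of all 23287 genes outside the muscle lists, only 6 passed as higher and 4 as lower, so the absence of calls in these lists says little. Over all genes tested, 9807 differences were above 0 and 13636 below. All 22 fibroblast and matrix genes were above 0, with a median of 0.76 (1.05 on slide 1 alone and 0.07 on slide 2 alone). Postn (periostin) read 4.05, 4.17, 4.55, 3.92 and 4.58 in Wsh 4, Wsh 3, Wsh 1, Wsh 5 and B6 4, against 3.05 to 4.10 without (limma adjusted p = 0.377), and Fbn1 (fibrillin 1) read 1.28 to 2.16, against 0.83 to 2.02 without (limma adjusted p = 0.530). White adipocyte genes were above 0 for 19 of 21, with a median of 1.16, which was 2.02 on slide 1 alone and -0.79 on slide 2 alone. Their mean over the list was 3.78 in Wsh 1 and 3.13 in B6 4, 2.11 in Wsh 4, 2.16 in Wsh 3 and 0.89 in Wsh 5, against -1.72 to 4.12 without. The 2 tumours of strongest muscle signal were thus in the middle of the range for white fat, and the highest, B6 7, was without muscle transcripts by the 4 markers. Dgat2 (the last step of triglyceride synthesis) and Rbp4 (retinol binding protein 4) read 1.02 to 5.50 and -0.61 to 4.76 with, against 1.0 to 5.61 and -3.70 to 4.59 without.

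Brown adipocyte genes were above 0 for 10 of 14, with a median of 1.28, which was 1.65 on slide 1 alone and -0.56 on slide 2 alone. Their mean over the list was -0.0052 in Wsh 4, -0.14 in Wsh 3, -0.69 in Wsh 1, -2.19 in Wsh 5 and -1.05 in B6 4, against -2.67 to -1.01 without, so the 3 highest tumours had muscle transcripts and Wsh 4 and Wsh 3 led. That list holds Cpt1b, Fabp3 and Cox7a1, which muscle also expresses, and Ucp1, the uncoupling protein that defines brown fat, was well above background on 3 of the 5 arrays with and 4 of the 10 without. Eosinophil genes were above 0 for 9 of 10, with a median of 1.25, which was 1.59 on slide 1 alone and -0.14 on slide 2 alone. Their mean was -3.07, -2.93, -0.85, -3.57 and -1.44 in Wsh 4, Wsh 3, Wsh 1, Wsh 5 and B6 4, against -4.25 to -1.85 without, and Wsh 1 and B6 4 were the 2 highest of the 15. The granule protein gene Epx, a defining eosinophil marker, was not well above background on any of the 15 arrays.

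Macrophage genes were above 0 for 18 of 21, with a median of 0.32, which was 0.47 on slide 1 alone and -0.22 on slide 2 alone. Cd163 and Mrc1, scavenger receptors of tissue macrophages, differed by 1.74 and 1.18 (limma adjusted p = 0.530 and 0.573). T cell genes were below 0 for 17 of 18, with a median of -0.54, and B and plasma cell genes for 13 of 14, with a median of -0.64. Within slides these medians were -0.29 and -0.69 on slide 1 and -2.24 and -2.12 on slide 2, and within B6 they were -0.03 and 0.25. Cd8b1 read -4.05 to -0.48 with, against -3.63 to 0.11 without, and Cd79a -7.83 to -2.84 with, against -7.25 to -2.82 without. The B and plasma cell mean was 0.79 in Wsh 1, above every tumour without, and -2.64 to -0.81 in the other 4, so 1 tumour with muscle transcripts went the other way. Wsh 1 did so for T cell genes too. Their mean was 0.27 there and -2.51 to -1.65 in the other 4, against -2.71 to -0.30 without.

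No gene of the tumour epithelium lists passed the test, which says little where so few genes outside the muscle lists did. Proliferation genes were below 0 for 30 of 30, with a median of -0.24 that turned to 0.04 within B6, and Mcm2 and Birc5 differed by -0.47 and -0.45 (limma adjusted p = 0.581 and 0.633). Luminal epithelium genes were below 0 for 18 of 20, with a median of -0.14. Of the milk and alveolar list 15 of 18 were below 0, and 2 caseins had the widest differences. Csn2 (beta casein) read -5.18 to -0.63 with, against -7.60 to 5.78 without (difference -4.52, limma adjusted p = 0.613). Csn1s1 (alpha S1 casein) read -2.29 to 0.76 with, against -0.76 to 5.77 without, and missed the threshold (difference -4.20, limma adjusted p = 0.051). Its highest values, 5.77, 4.67 and 4.49, belonged to Wsh 6, Wsh 7 and Wsh 2, the Wsh tumours without muscle transcripts. B6 tumours without read -0.76 to 1.88 for Csn1s1. Wsh 6 and Wsh 7 were also the highest for Csn2, at 5.78 and 5.13. Tendon genes, which accompany muscle at its insertions, had a median of 0.02, and Schwann cell and nerve genes one of 0.31. No member was called in either, as in every list of other tissues.

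The effect of muscle transcripts differed between the Wsh and B6 backgrounds for 14 of 23441 genes (0.0597%) by limma's interaction term with Benjamini-Hochberg adjustment. None of the 14 was a muscle gene, and the B6 side of the term rested on B6 4 alone.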

How the data were processed

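Total RNA of 15 tumours was hybridised to single-colour Agilent mouse arrays, 1 array per tumour. Per the file headers, the deposited scanner files hold spot intensity values that Feature Extraction 10.7.3.1 had background-subtracted, with probe positions on mm9. The authors' deposited log2 values of the same arrays were made with limma, per the submitters' processing notes, and served as an alternative. From the processed signal, log2 minus each array's 75th percentile over non-control spots was taken, and spots of 1 probe were averaged. Probes dim on more than 10 of the 15 arrays (not flagged well above background) were dropped, and the brightest remaining probe, by mean, stood for each gene symbol. Names came from RefSeq (GRCm38.p6) by accession for 32989 of 56605 probes, by symbol for 10228, by synonym for 519, and from the file for the rest. limma 3.58.1 in R 4.3.3 fitted background and muscle group, with Benjamini-Hochberg adjustment over all genes but the 4 markers, at 0.05. The groups were formed from the same arrays, so a p-value describes association with that split, and the muscle genes' calls, which come from that same fit, are given as a description.

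A difference is the fitted coefficient, so it is not the plain difference of group means. Where no array of a group had a probe well above background, folds are lower bounds against the lowest signal above background. The precision is limited by the number of arrays. The fit was tested on simulated data with known changes. Named genes were the markers, all measured slow fibre, regulator, satellite cell and developmental genes, the 4 kept genes of largest difference in each other muscle list, up to 12 rises and 12 falls outside them, and the 3 of largest moderated t in each other list. From these the text gives those that bear on a comparison. The members and gene lists were chosen with earlier results of these data known.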

Additional observations from a re-analysis of the deposited data

Results flagged for a closer look

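Among the 5 tumours with muscle transcripts, Wsh 5 stood apart from the other 4 for Myl2 at -0.50 and for Tnni1 at -1.62, both slow fibre genes. Among the 10 tumours without, B6 7 stood apart as high for Myh4 at -0.38, Myh8 at -1.01 and Dgat2 at 5.61. B6 3 stood apart as high for Actn3 at -2.62 and Neb at -3.63, and as low for Tnnt3 at -5.67, Myod1 at -7.10 and Mrc1 at -1.29. B6 8 stood apart as high for Myh1 at -3.07 and Tnnc2 at -2.27 and as low for Cpt1b at -6.14. B6 6 was high for Ckm at -1.86 and low for Mylpf at -4.70, B6 1 was high for Trim54 at -3.26, and Wsh 2 was high for Tnni1 at -1.73. Chance alone marks about 1 in 20 groups this way, and several of these low values are not well above background.

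The effect of muscle transcripts differed between Wsh and B6 tumours for 14 genes by limma's interaction term. In 13 of the 14, B6 4 lay above all 7 other B6 tumours, and in Efcab9 it lay below them; Gm16794 read -1.07 in B6 4, against at most -5.02 in the others. A single B6 tumour had muscle transcripts, so its own peculiarities and the effect of muscle cannot be told apart. The share of the Wsh tumours in the term varied by gene. Within Wsh, Gm16794 averaged -5.11 with muscle transcripts and -5.59 without, while Gdf11 averaged -6.80 with and -2.44 without.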

How the results depend on the processing

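The split into 5 and 10 tumours was the same with the boundary at the widest gap and with normexp, quantile-normalized or deposited log2 values. The 37 called genes became 22 with normexp, 23 with deposited log2 values, 18 with a filter of at least 7 arrays, 3 with a filter of all 15 arrays, 18 with the slide block, 2 on slide 1 alone, 0 on slide 2 alone, 1 in Wsh tumours alone, and 94 both with array weights and with the marker average as a continuous covariate. Leaving out single tumours gave 17 to 49, the lowest without Wsh 7. With the replicate number as a block 0 genes passed limma, with 4318 at an unadjusted p under 0.05. Of 7 same-numbered pairs, 2 correlated over 0.1 (-0.214 to 0.212). Pairs of unlike number were not compared, so whether the number marks a shared factor was not tested. The median over muscle genes, 0.89, moved to 0.32 in B6 tumours alone and to 1.35 without Wsh 1 and B6 4. It was 0.57 without Wsh 3 and Wsh 4, the tumours of strongest muscle signal, a change smaller than the spread between arrays. The median over other genes moved to -0.10 in B6 tumours alone. Among named genes, Ank1 turned to -0.53 under the filter of 7 arrays, which keeps another of its probes; Ankrd2 to -0.55 and Csn2 to 0.0049 in B6 tumours alone; and Dgat2 to -1.20 and Rbp4 to -1.58 on slide 2 alone, where 1 tumour had muscle transcripts. The interaction count was 35 in place of 14 with deposited values. The omissions of tumour pairs, the within-slide list medians and the interaction alternatives were chosen after seeing the data. For other changes the cause was not tested. Signal over background limits Myh7, Myf6, Myog, Pax7 and Myh3, which were too dim to be tested.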
